A study of Homo sapiens with 12 samples.

Results

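Interleukin-6 (IL6), oncostatin M (OSM) and leukaemia inhibitory factor (LIF) are cytokines that signal through a shared receptor chain, gp130, encoded by IL6ST. The genes described here are the 3 ligands IL6, OSM and LIF and the 3 receptor chains IL6R, IL6ST and OSMR. They were the rows whose Ensembl identifier maps to those symbols, 6 of the 57992 gene identifiers in the count table, and all 6 were found. The libraries came from induced microglia-like cells (iMGLs), made by differentiating H1, a human embryonic stem cell line, and the labels give microglia as the cell type. The 5 groups were unedited cells with vehicle (WT, 3 libraries), cells with a MEF2C knockout and vehicle (KO, 3 libraries), WT cells with lipopolysaccharide (WT LPS, 2 libraries), KO cells with LPS (KO LPS, 2 libraries), and KO cells with LPS and BMS265246 (KO LPS BMS, 2 libraries). LPS is a bacterial cell wall component sensed through TLR4, and BMS265246 is a cyclin-dependent kinase inhibitor, CDK2 being the kinase the series title names. No group held the compound without LPS or in WT cells. The sources used here give neither dose and time of the treatments nor the kind of edit and the number of KO clones. The labels call the libraries biological replicates without saying whether they came from separate differentiations, so p-values measure the spread between these libraries.

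IL-6 binds its own receptor chain, IL6R, and the pair then engages gp130. LIF uses gp130 with LIFR, and OSM uses gp130 with either OSMR or LIFR. The assembled receptors activate JAK kinases and the transcription factor STAT3, which induces its own inhibitor SOCS3. In the brain, microglia are known as a source of IL-6 under inflammatory stimulation, while OSMR is best known on stromal and endothelial cells and astrocytes. IL6R can also be cut from the cell surface by the protease ADAM17, and the soluble receptor then acts on cells that carry gp130 alone.

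The DNA before the IL6 start is shown because IL6 had the largest LPS response of the 6 genes, and this stretch is known for binding the factors that LPS activates. The 197 bases below lie on the plus strand at chr7:22726950-22727146 (GRCh38.p14), from the RefSeq promoter window around the gene's start. They end 54 bases before the RefSeq start, ahead of the first exon that GENCODE release 29 places in the window, and 1 longer transcript of that annotation crosses them as an intron. Capitals mark the matches found, in order ACGTCA (core of the CRE, the cAMP response element), TTGCNNAA (C/EBP) and the kB element of NF-kB (GGGA and TTCC with 2 free bases between).
IL6: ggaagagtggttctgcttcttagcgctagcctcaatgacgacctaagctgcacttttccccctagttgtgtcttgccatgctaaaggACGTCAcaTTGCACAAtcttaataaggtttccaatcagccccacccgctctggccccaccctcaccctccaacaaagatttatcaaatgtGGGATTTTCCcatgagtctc

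Both strands were searched, and the matches do not overlap. The kB match begins 73 bases before the RefSeq start, the C/EBP match 155 and the CRE core 163. Among 35116 promoter windows of the same length, 1.61% held the kB letters, 10.5% the C/EBP letters and 7.98% the CRE core. The IL6R window held 1 match to TGANTCA (AP-1, in 7.71% of windows). The OSMR window held 1 match to the AP-1 letters and 1 to the C/EBP letters, and the IL6ST window held none of the 6 motifs. No member window held TTCNNNGAA (STAT, 7.66% of windows) or the MEF2 element (CTA and TAG with 4 free bases between, 2.73%). The table of windows covered 4 of the 6 genes, and OSM and LIF were not in it. These matches are letters in a window and not measured binding.

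Each library held 13888283 to 17639136 counts. Levels are given as CPM, the count relative to the library's total in the usual unit, on library sizes scaled by TMM, which equalises the bulk of genes between libraries. On that scale 3 counts, the upper limit that a count of 0 allows, correspond to 0.154 to 0.236 CPM, a floor that covers counting error only. Changes are log2 fold changes ± SE fitted with edgeR. Its quasi-likelihood test covered 16022 genes, and called means an adjusted p (Benjamini-Hochberg) below 0.05. The targeted gene MEF2C was at 177 to 193 CPM in WT and 129 to 136 CPM in KO, so it was lower in KO (-0.47 ± 0.05, adjusted p = 4e-07) but still transcribed. With LPS it was at 43.7 to 51.6 CPM in all 6 libraries. The MEF2C difference between KO LPS and WT LPS was not called (-0.13 ± 0.07, adjusted p = 0.187). The summed level of 14 microglial and macrophage markers was 7710 to 9360 CPM in every library. Single markers moved within that sum. With LPS in WT 4 of the 13 tested were called lower and 2 higher (30.8% and 28.9% of all genes), and P2RY12 fell from 15.1 ± 1.72 to 1.81 ± 0.169 CPM. Without LPS 6 were lower in KO than in WT and 2 higher (11.4% and 10.2% of all genes). Under LPS 5 were lower in KO than in WT and 4 higher (15% and 15.6% of all genes). With the compound 3 were lower than in KO LPS and 9 higher (25.5% and 22.3% of all genes). The median of that last comparison was 0.31, against -0.04 over all genes. CD68 of that list had at most 4 counts per library, and 1789 of its 2189 exon bases are shared with another annotated gene on the same strand.

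The level per length gives the rank of the 6 genes. In WT cells without LPS, IL6ST was at 55.9 ± 1.09 CPM per kb of exon (SD, n = 3), IL6R at 31 ± 0.578, OSM at 11.3 ± 0.642, LIF at 6.91 ± 0.541, IL6 at 0.565 ± 0.104 and OSMR at 0.0579 ± 0.024. IL6 was thus the lowest of the 5 genes clearly above the floor. In KO LPS cells IL6 came first at 122 ± 3.38 CPM per kb (SD, n = 2), above IL6ST at 58.2 ± 3.65, OSM at 20 ± 1.3, IL6R at 17.5 ± 0.0563 and LIF at 11.2 ± 0.798. Exon length here is the union over all annotated transcripts, so these values rank genes only roughly.

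**Figure D1:**
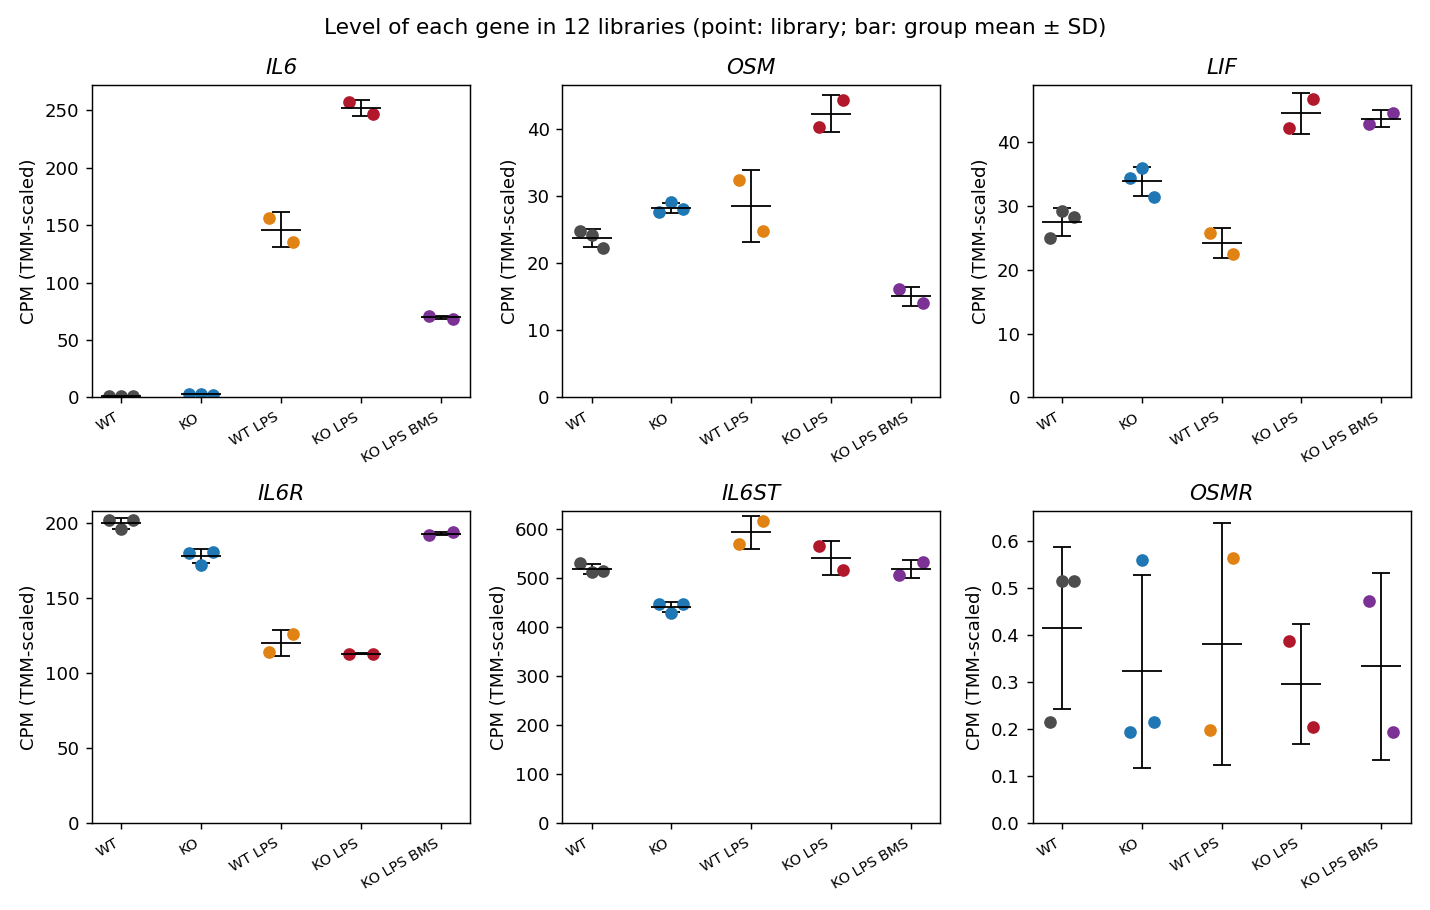
CPM on TMM-scaled library sizes (vertical axes, linear and starting at 0, each with its own range) of the 6 genes in the 5 groups; points are libraries and bars are group mean ± SD. IL6 lay at 0.927 to 3.03 CPM without LPS and at 68.6 to 257 CPM with it, LIF was highest on this scale in both KO groups with LPS, and OSMR stayed at or below 0.563 CPM.

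IL6 (ENSG00000136244, chromosome 7, 22725884 to 22732002, plus strand, GENCODE release 29 on GRCh38) encodes the ligand that gives the family its name. Its level was 1.24, 1.34 and 0.927 CPM in the 3 WT libraries and 3.03, 2.91 and 2.47 CPM in the 3 KO libraries. It was 156 and 135 CPM in WT LPS, 257 and 247 CPM in KO LPS, and 70.7 and 68.6 CPM in KO LPS BMS. The 5 groups did not overlap, in the order KO LPS, WT LPS, KO LPS BMS, KO and WT. LPS raised IL6 in WT cells by 6.95 ± 0.11 (adjusted p = 9.11e-23) and in KO cells by 6.49 ± 0.10 (adjusted p = 4.73e-23). IL6 was higher in KO than in WT without LPS (1.25 ± 0.18, adjusted p = 1.96e-05) and with it (0.79 ± 0.07, adjusted p = 4.48e-08). The genotype difference in the LPS response was -0.46 ± 0.20 (95% interval -0.87 to -0.05) and did not pass the test over all genes (adjusted p = 0.143). With the compound IL6 fell to 0.276 of the KO LPS level (-1.86 ± 0.08, adjusted p = 6.02e-14), a level below WT LPS (-1.07 ± 0.08, adjusted p = 1.54e-10) but 24.9-fold above resting KO cells (4.64 ± 0.10, adjusted p = 4.94e-20). An antisense gene overlaps 428 of the exon bases of IL6 and held at most 9 counts per library. The protein-coding gene STEAP1B, also on the opposite strand, overlaps 46 exon bases of IL6 and held 73 to 300 counts. IL6 itself had 18 to 26 counts per library in WT and 46 to 52 in KO. Whether reads of the overlapping genes entered these counts was not tested.

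OSM (ENSG00000099985, chromosome 22, 30262829 to 30266840, minus strand) encodes a ligand made mainly by myeloid cells. Its level was 24.9, 24.3 and 22.3 CPM in WT, 27.7, 29.2 and 28.1 CPM in KO, 32.4 and 24.8 CPM in WT LPS, 40.4 and 44.3 CPM in KO LPS, and 16.2 and 14.1 CPM in KO LPS BMS. Both KO LPS libraries were above all others and both KO LPS BMS libraries below all others, while WT LPS overlapped KO (by total library size it overlapped WT instead). In KO cells OSM rose with LPS by 0.58 ± 0.10 (adjusted p = 4.1e-05), and under LPS it was higher in KO than in WT (0.57 ± 0.11, adjusted p = 0.000416). In WT cells the LPS change of 0.26 ± 0.10 passed narrowly (adjusted p = 0.0332). That call ended without WT LPS replicate 1 (0.06, adjusted p = 0.707) and without WT replicate 2 (0.28, adjusted p = 0.0517) or 3 (0.21, adjusted p = 0.119). It also ended with the replicate number as a block (0.23, adjusted p = 0.089), and with scaling by total library size the value was -0.03. The genotype difference in the response (0.32 ± 0.14, 95% interval 0.02 to 0.61) did not pass the test, adjusted p = 0.155. Without WT LPS replicate 1 it passed, at 0.53 with adjusted p = 0.017. The difference between KO and WT without LPS, 0.25 ± 0.09, did not pass either (adjusted p = 0.0543). With the compound OSM fell by 1.49 ± 0.12 on the log2 scale (adjusted p = 1.41e-09), to a level below resting KO cells (-0.91 ± 0.11, adjusted p = 3.43e-07) and below WT LPS (-0.92 ± 0.12, adjusted p = 1.27e-06).

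LIF (ENSG00000128342, chromosome 22, 30240447 to 30246851, minus strand) is the neighbour of OSM, 16.0 kb away on the same strand with no protein-coding gene between them. Its level was 25, 29.1 and 28.2 CPM in WT, 34.3, 35.8 and 31.3 CPM in KO, 25.7 and 22.4 CPM in WT LPS, 42.2 and 46.7 CPM in KO LPS, and 42.7 and 44.5 CPM in KO LPS BMS. All KO libraries, with and without LPS, lay above all WT libraries. LIF was higher in KO than in WT without LPS (0.30 ± 0.08, adjusted p = 0.00904), a call lost when WT replicate 1 (0.24, adjusted p = 0.0671) or KO replicate 2 (0.25, adjusted p = 0.0631) was left out. Under LPS the difference was 0.89 ± 0.10 (adjusted p = 7.35e-07). The LPS response itself differed between genotypes. It was -0.19 ± 0.09 in WT, not called (adjusted p = 0.0838), and 0.40 ± 0.09 in KO (adjusted p = 0.00076), and their difference of 0.59 ± 0.13 passed the test (adjusted p = 0.00419). Scaled by total library size, the WT response was -0.48 (adjusted p = 0.000115) and the KO response 0.14 (adjusted p = 0.182), while their difference was 0.62 (adjusted p = 0.0023). The compound left no detectable change in LIF (-0.02 ± 0.10, 95% interval -0.22 to 0.18, adjusted p = 0.854).

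OSM and LIF thus parted under the compound. Within a library, which no scaling affects, the ratio of LIF to OSM in CPM per kb was 0.536 to 0.673 in WT, 0.594 to 0.659 in KO, 0.423 and 0.482 in WT LPS, and 0.556 and 0.561 in KO LPS. It was 1.41 and 1.68 in KO LPS BMS, above every other library. The ratio of IL6 to OSM was 0.0425 to 0.112 without LPS, 4.94 to 6.51 in the LPS groups and 4.47 and 4.97 with the compound, so the values with the compound bordered on or overlapped those of the LPS groups. With 2 libraries a group an exact permutation test of these ratios cannot reach significance, since even 3 against 3 libraries cannot give a p under 0.1, and they are given as values.

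**Figure D2:**
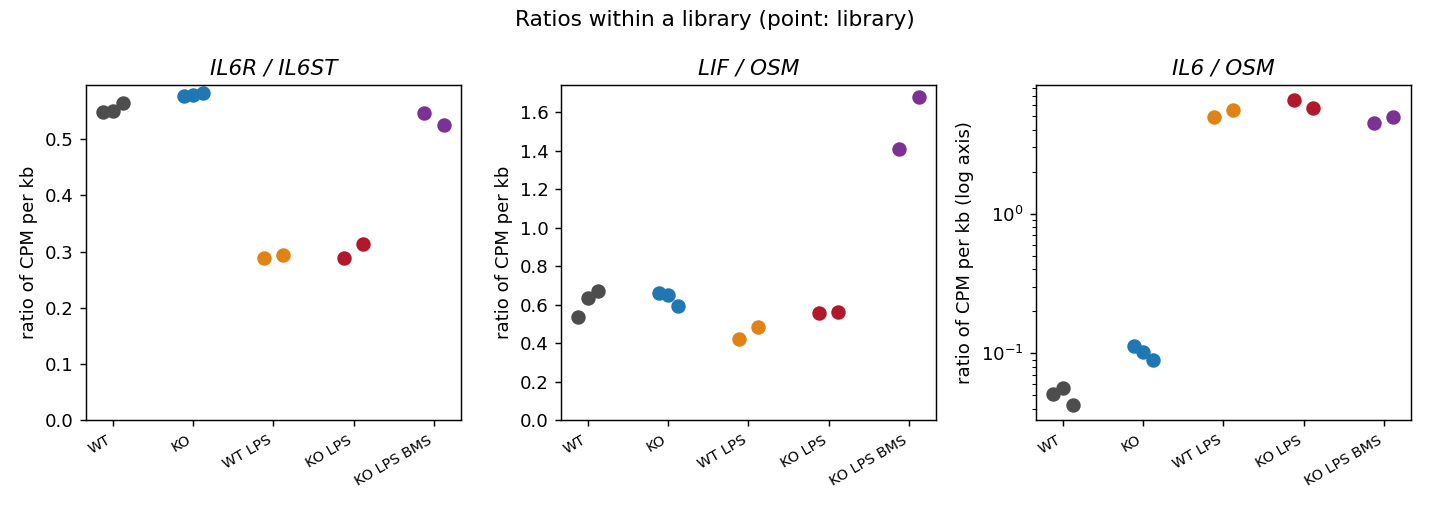
Ratio of 2 genes in CPM per kb within each library (points), by group, for IL6R to IL6ST, LIF to OSM (linear axes from 0) and IL6 to OSM (log axis). IL6R to IL6ST was 0.525 to 0.582 in WT, KO and KO LPS BMS and 0.288 to 0.314 in both LPS groups without compound.

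IL6R (ENSG00000160712, chromosome 1, 154405193 to 154469450, plus strand) encodes the chain that binds IL-6. Its level was 202, 196 and 202 CPM in WT, 180, 172 and 181 CPM in KO, 114 and 126 CPM in WT LPS, 113 and 113 CPM in KO LPS, and 192 and 194 CPM in KO LPS BMS. The 4 LPS libraries without compound were below all other libraries. IL6R fell with LPS in WT (-0.74 ± 0.06, adjusted p = 2.18e-10) and in KO cells (-0.65 ± 0.06, adjusted p = 3.25e-09), and the difference of these responses was 0.09 ± 0.08 (95% interval -0.08 to 0.25, adjusted p = 0.536). With the compound IL6R was 1.71-fold higher than in KO LPS (0.77 ± 0.06, adjusted p = 1.76e-09), and its difference from resting KO cells was 0.12 ± 0.06 (95% interval 0.01 to 0.24, adjusted p = 0.0644). That small difference was -0.22 with scaling by total library size (adjusted p = 0.00262). KO was slightly below WT without LPS (-0.17 ± 0.05, adjusted p = 0.0141), a call lost without WT replicate 1 (-0.16, adjusted p = 0.0501), WT replicate 3 (-0.17, adjusted p = 0.0583) or KO replicate 2 (-0.15, adjusted p = 0.0853). Under LPS the genotypes differed by -0.09 ± 0.06 (95% interval -0.22 to 0.04, adjusted p = 0.317).

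IL6ST (ENSG00000134352, chromosome 5, 55935095 to 55994993, minus strand) encodes gp130, the signal-transducing chain of the whole family. Its level was 531, 512 and 515 CPM in WT, 448, 429 and 448 CPM in KO, 569 and 617 CPM in WT LPS, 565 and 517 CPM in KO LPS, and 506 and 532 CPM in KO LPS BMS. On the TMM scale KO libraries were the lowest of all, and WT, KO LPS and KO LPS BMS overlapped. By total library size KO LPS BMS was the lowest, at 441 and 470 CPM against 472 to 500 CPM in KO. IL6ST was lower in KO than in WT without LPS (-0.23 ± 0.05, adjusted p = 0.000859). The LPS changes of 0.19 ± 0.05 in WT (adjusted p = 0.00384) and 0.29 ± 0.05 in KO (adjusted p = 9.54e-05) were called on the TMM scale, but were -0.09 (adjusted p = 0.155) and 0.04 (adjusted p = 0.585) on total library sizes. Without WT LPS replicate 2 the WT change was 0.13 (adjusted p = 0.0862). With the compound IL6ST differed from KO LPS by -0.06 ± 0.06 (95% interval -0.18 to 0.06, adjusted p = 0.431). The ratio of IL6R to IL6ST within a library does not depend on that scaling. It was 0.549 to 0.565 in WT, 0.577 to 0.582 in KO, 0.288 and 0.294 in WT LPS, 0.289 and 0.314 in KO LPS, and 0.547 and 0.525 in KO LPS BMS. The LPS groups without compound therefore stood apart from the other 3 groups by this measure too.

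OSMR (ENSG00000145623, chromosome 5, 38845858 to 38945596, plus strand), the chain that pairs with gp130 for OSM, was close to the limit of detection. Its 12 counts were 4, 10 and 10 in WT, 3, 10 and 4 in KO, 3 and 9 in WT LPS, 6 and 3 in KO LPS, and 6 and 3 in KO LPS BMS, or 0.193 to 0.563 CPM. All groups overlapped, and OSMR did not pass the filter on low counts, so it is not among the 5 members tested. In a fit without the filter its log2 fold changes ranged from -0.39 ± 0.78 to 0.14 ± 0.82, with adjusted p from 0.841 to 1, and a change could not be detected at this depth. LIFR, the other partner of gp130 for OSM and the receptor chain for LIF, had at most 7 counts in a library and was not tested either. Both ligands were thus measured at 14.1 CPM or more in every library, while each of their specific receptor chains stayed below 1 CPM. Bulk counts cannot tell a few cells with the receptor from little RNA in each cell. RICTOR, a protein-coding gene on the opposite strand, overlaps 229 of the 7174 exon bases of OSMR. It held 884 to 1569 counts per library, and whether its reads entered the OSMR counts was not tested.

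The number of the 5 tested members that were called is set here beside the share of all genes. KO against WT without LPS called 4 (IL6 and LIF higher, IL6R and IL6ST lower), where 21.6% of all genes were called (10.2% higher, 11.4% lower). LPS called 4 in WT (IL6, OSM and IL6ST higher, IL6R lower) against 59.7% of all genes (28.9% higher, 30.8% lower), and all 5 in KO (IL6R alone lower) against 44.8% (24.5% higher, 20.3% lower). By total library size the 5 calls in KO became 3, and the higher genes were 26.7% of the calls in WT in place of 48.4% and 25.5% in KO in place of 54.7%, because that scaling moved the median of all genes by -0.29 and -0.25. Under LPS, KO against WT called IL6, OSM and LIF, all higher, against 30.6% of all genes (15.6% higher). The genotype by LPS interaction called LIF alone of the 5, against 12% of all genes (6.42% higher, 5.57% lower), and OSM as well without WT LPS replicate 1. Higher genes were 53.5% of all interaction calls, 65.3% by total library size, 43.5% with RLE factors and 42.4% with only the groups compared. The compound against KO LPS called IL6 and OSM lower and IL6R higher, against 47.8% of all genes (22.3% higher, 25.5% lower). Under LPS with compound, 4 members were called against resting KO (IL6, LIF and IL6ST higher, OSM lower) against 62.7% of all genes (30.3% higher, 32.4% lower) and 5 against WT LPS (LIF and IL6R higher, IL6, OSM and IL6ST lower) against 56.4% (28.1% higher, 28.3% lower). By total library size the higher genes were 26.1% of all calls against resting KO in place of 48.4%, with the median of all genes moved by -0.34. On that scale LIF (0.03, adjusted p = 0.749) and IL6ST (-0.10, adjusted p = 0.118) were not called against resting KO, and IL6R was called lower (-0.22, adjusted p = 0.00262). The IL6ST call against WT LPS (-0.19 ± 0.06, adjusted p = 0.00809) ended without WT LPS replicate 2 (-0.14, adjusted p = 0.0981) or KO LPS BMS replicate 1 (-0.16, adjusted p = 0.0849). Comparisons with the same KO LPS, KO or WT LPS libraries are not independent of one another. In 4 of them the share of all genes was near or above 50%, so a call alone says little about a member there, and the sizes above carry the description.

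**Figure D3:**
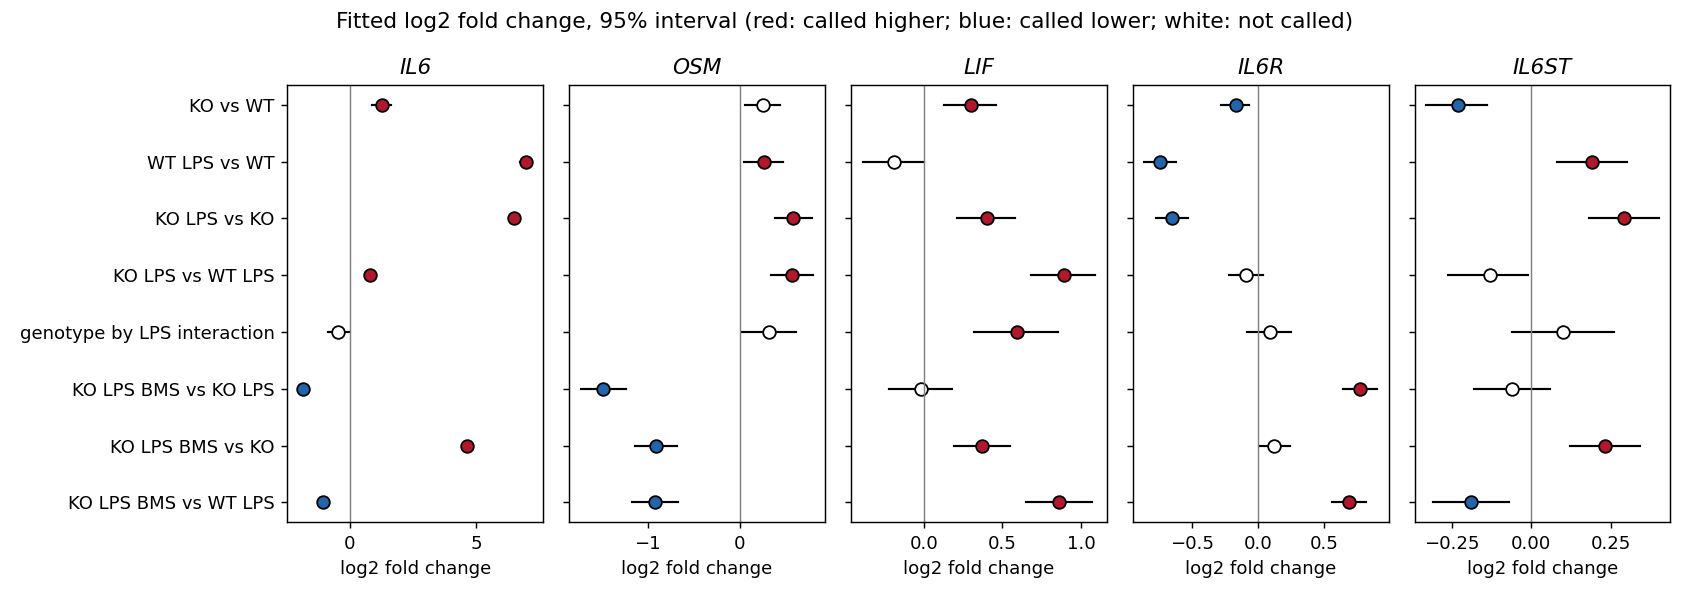
Fitted log2 fold change (horizontal axes, each with its own range) with its 95% interval for the 5 tested genes in 8 comparisons; red and blue points were called higher and lower, white points were not called. IL6 reached 6.95 with LPS in WT, LIF was the only gene called in the interaction (0.59), and the compound moved IL6 (-1.86) and OSM (-1.49) opposite to IL6R (0.77).

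Of the other ligands of the family, 5 of 8 were tested. EBI3, a subunit shared by IL-27 and IL-35, rose with LPS from 13.8 ± 1.09 to 179 ± 22.3 CPM in WT (3.69 ± 0.13, adjusted p = 1.01e-10) and from 8.69 ± 1.03 to 121 ± 24.5 CPM in KO (3.79 ± 0.14, adjusted p = 3.01e-10). It was lower with the compound, at 55.7 ± 4.18 CPM (-1.12 ± 0.14, adjusted p = 2.91e-05), and, unlike IL6, lower in KO LPS than in WT LPS (-0.57 ± 0.13, adjusted p = 0.00536). The other tested ligands were at 1.82 CPM or less in every group mean. Of these CNTF, a neurotrophic ligand, rose with the compound from 0.659 ± 0.254 to 1.82 ± 0.342 CPM (1.46 ± 0.47, adjusted p = 0.0145). Of the other receptor chains, 3 of 5 were tested. IL27RA, which pairs with gp130 for IL-27, was at 63.1 ± 1.15 CPM in KO, 86.5 ± 3.04 CPM in KO LPS and 39.8 ± 0.155 CPM in KO LPS BMS. Its LPS response differed between genotypes (0.55 ± 0.10, adjusted p = 0.000813), as that of LIF did, and it fell with the compound by 1.12 ± 0.08 on the log2 scale (adjusted p = 3.38e-10). IL11RA fell with LPS in WT (-1.05 ± 0.21, adjusted p = 0.000189) and in KO (-0.56 ± 0.19, adjusted p = 0.0217).

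Of signal transduction and its inhibitors, 11 genes are described and all were tested. With LPS 7 rose and 1, CISH, fell in WT (median 0.52, against -0.07 over all genes), and 7 rose and 0 fell in KO (median 0.42, against 0). On total library sizes 6 rose in each, with 3 lower in WT and 0 in KO. Among all genes tested, LPS gave 28.9% higher and 30.8% lower in WT, and 24.5% and 20.3% in KO. JAK1, a kinase bound to gp130, rose from 213 ± 12 to 579 ± 19.5 CPM in WT (1.44 ± 0.05, adjusted p = 5.38e-16). STAT3 rose from 218 ± 4.7 to 505 ± 11.8 CPM in WT (1.21 ± 0.05, adjusted p = 2.81e-15). In KO the rises were smaller, at 1.09 ± 0.05 for JAK1 (interaction -0.35 ± 0.08, adjusted p = 0.00455) and 0.94 ± 0.05 for STAT3 (interaction -0.28 ± 0.07, adjusted p = 0.0128). Under LPS 4 genes of the list, JAK1 and STAT3 among them, were called lower in KO than in WT, and 1 higher. On total library sizes these were 3 and 1, and of all genes 15% were lower and 15.6% higher. SOCS3, the feedback inhibitor that binds gp130, rose from 142 ± 6.33 to 411 ± 36.4 CPM in WT and from 94 ± 5.49 to 341 ± 57.6 CPM in KO (1.86 ± 0.09, adjusted p = 9.07e-10). With the compound 3 genes of the list rose and 4 fell against KO LPS (median -0.10, against -0.04 over all genes), where 22.3% of all genes rose and 25.5% fell. STAT3 was among those that fell, to 339 ± 4.76 CPM (-0.38 ± 0.06, adjusted p = 6.58e-06), and SOCS3 stayed at 332 ± 22.3 CPM (-0.04 ± 0.10, adjusted p = 0.778).

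Of 15 genes known as STAT3 targets, all tested, 12 rose and none fell with LPS in WT (median 0.73), and 11 rose and none fell in KO (median 0.99). Of all genes 28.9% were called higher and 30.8% lower with LPS in WT, and 24.5% and 20.3% in KO. On total library sizes these were 8 higher and 2 lower in WT and 8 higher and 1 lower in KO. Among the WT calls TIMP1 (-0.14), BCL2L1 (-0.04) and IL4R had the other sign there, IL4R with a value that rounds to 0 (adjusted p = 0.965). In KO against WT 6 of the 15 were called higher and 1 lower without LPS (10.2% and 11.4% of all genes). Under LPS these were 5 and 1 (15.6% and 15% of all genes), or 3 and 2 with RLE factors. Many of the 15 genes are also targets of NF-kB, so they do not report on gp130 signalling alone. The transcriptional repressor BCL6 had the lowest adjusted p of the list in WT and rose from 30.3 ± 1.88 to 150 ± 9.19 CPM in WT (2.30 ± 0.07, adjusted p = 9.32e-18). With the compound 4 of the 15 rose and 3 fell (median -0.04, as over all genes), near the 22.3% called higher and 25.5% called lower of all genes. BCL2L1, which encodes the survival protein BCL-XL, rose from 93.9 ± 3.3 to 210 ± 9.97 CPM (1.16 ± 0.07, adjusted p = 1.04e-11). BCL6 fell to 91.1 ± 0.188 CPM (-0.91 ± 0.07, adjusted p = 1.77e-09) and BATF fell from 6.66 ± 1.03 to 2.01 ± 0.387 CPM (-1.74 ± 0.27, adjusted p = 1.48e-05). Of 10 acute phase genes, which IL-6 induces in liver, none passed the filter, and the highest held 11 counts in a library.

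**Figure D4:**
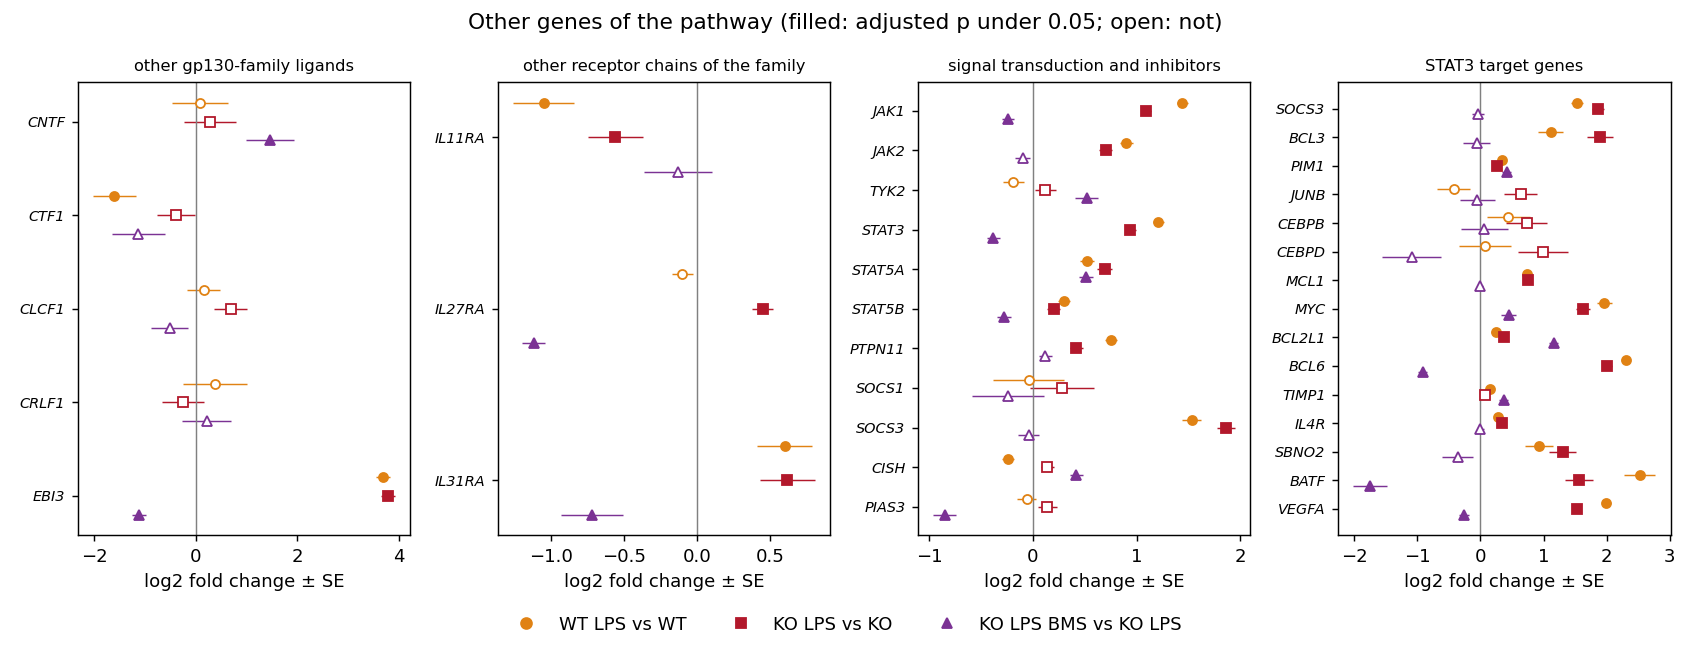
Log2 fold change ± SE (horizontal axes) of tested genes of the pathway in 4 lists for LPS in WT (orange circles), LPS in KO (red squares) and the compound against KO LPS (purple triangles); filled symbols had an adjusted p under 0.05. EBI3 and SOCS3 rose with LPS in both genotypes, and EBI3 and IL27RA, but not SOCS3, fell with the compound.

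All 4 genes of receptor shedding were tested, and with LPS 3 rose in WT (median 0.69) and 4 in KO (median 0.96), against 2 and 3 on total library sizes. Of all genes 28.9% rose in WT (median -0.07) and 24.5% in KO (median 0). ADAM17, the protease that cuts IL6R, rose with LPS from 57.1 ± 2.56 to 124 ± 10.5 CPM in WT (1.12 ± 0.06, adjusted p = 1.14e-12) and from 55.2 ± 2.06 to 121 ± 4.72 CPM in KO, and rose further with the compound to 219 ± 0.904 CPM (0.85 ± 0.07, adjusted p = 2.04e-09). RHBDF2, which carries ADAM17 to the cell surface, rose with LPS in KO to 91.3 ± 18.7 CPM (1.71 ± 0.16, adjusted p = 1.36e-05) and fell with the compound to 47.8 ± 4.2 CPM (-0.94 ± 0.18, adjusted p = 0.00182). ADAM10 was lower with the compound (-0.57 ± 0.07, adjusted p = 2.99e-07), and RHBDF1 was not called (-0.44 ± 0.25, adjusted p = 0.148).

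Of 10 regulators of the IL6 gene and its mRNA, 6 rose and 2 fell with LPS in WT (median 0.61), and 7 rose and none fell in KO (median 0.88, with 5 higher and 1 lower on total library sizes). The shares of all genes were 28.9% higher and 30.8% lower in WT (median -0.07), and 24.5% and 20.3% in KO (median 0). NFKBIZ, a nuclear cofactor needed for IL6 transcription, rose from 62.2 ± 4.14 to 471 ± 4.97 CPM in WT (2.92 ± 0.06, adjusted p = 4.22e-21) and to 402 ± 1.59 CPM in KO. NFKB1, an NF-kB subunit gene, was at 435 ± 19.5 CPM in WT LPS and 295 ± 9.86 CPM in KO LPS, lower in KO (-0.56 ± 0.06, adjusted p = 2.56e-07). With the compound 6 of the 10 rose and 1 fell (median 0.37, against -0.04), and on total library sizes 4 rose and 1 fell. The list mixes genes that promote IL6 expression with decay factors, so these counts have no single direction for IL6. The part of these genes in the level of IL6 was not tested. Of all genes 22.3% rose and 25.5% fell with the compound. NFKB1 rose to 379 ± 0.231 CPM (0.36 ± 0.06, adjusted p = 2.9e-05) and NFKBIZ to 467 ± 12.4 CPM (0.22 ± 0.06, adjusted p = 0.00466). RC3H1, which encodes Roquin-1, an RNA-binding protein that promotes decay of cytokine mRNAs, rose from 68.2 ± 4.39 to 157 ± 8.33 CPM (1.21 ± 0.07, adjusted p = 7.62e-12), and ZFP36, which encodes another decay factor, fell from 162 ± 17.5 to 98 ± 7.21 CPM (-0.73 ± 0.09, adjusted p = 5.3e-06).

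Markers of cells that could add these transcripts were low. The summed level of 7 fibroblast and mesenchymal markers was 10.4 to 27.1 CPM in WT, 18.1 to 60 CPM in KO and 17 to 18.5 CPM in WT LPS. It was 18.6 to 24.6 CPM in KO LPS and 20.9 to 23.3 CPM in KO LPS BMS. No marker was at 0 in all libraries of a group, but DCN had at most 6 counts in a library and LUM at most 12. Of 5 endothelial markers, the sum was 7.16 to 7.6 CPM in KO and 2.81 to 3.86 CPM in WT. It was 5.13 to 5.55 CPM in KO LPS, 1.38 to 1.4 CPM in WT LPS and 5.12 to 5.66 CPM in KO LPS BMS. The sum was thus higher in KO than in WT with and without LPS, as LIF and IL6 were. Unlike IL6, it was lower with LPS in both genotypes, and with the compound it overlapped KO LPS. The defining endothelial markers CDH5 and VWF were at most at 3.88 CPM in a group mean, and CLDN5 had at most 1 count. Of 6 granulocyte markers the sum was 157 to 162 CPM in KO, 95.5 to 103 CPM in WT, 122 to 141 CPM in KO LPS, 67.9 to 72.6 CPM in WT LPS and 156 to 159 CPM with the compound. Nearly all of it was CSF3R, a receptor gene that microglia also express, while ELANE, MPO, AZU1 and PRTN3 had at most 13 counts in a library. Of 5 lymphocyte markers the sum was 16.3 to 19.5 CPM without LPS and 25 to 37.8 CPM in both LPS groups without compound. It was 16.9 to 17 CPM with the compound. This sum was thus higher with LPS in both genotypes and lower with the compound than in KO LPS, as IL6 was. Nearly all of it was NKG7, and MS4A1 was at 0 in every library. Of 4 astrocyte markers the sum was 1.08 to 1.73 CPM without LPS and 6.62 to 13.2 CPM with it. With LPS nearly all of it was SLC1A2. In WT without LPS SLC1A2 was at 0.961 ± 0.107 CPM and GFAP at 0.371 ± 0.253 CPM. GFAP had at most 12 counts in a library, and AQP4 and ALDH1L1 were at 0 in every library. Of 5 pluripotency markers the sum was 0.394 to 2.57 CPM. The part of such cells in the differences of IL6, OSM and LIF was not tested.

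The genes whose pattern over the 12 libraries was most like that of each tested member were found by Pearson's r of log2 CPM among genes averaging 1 CPM or more, a description in which all values share the group structure. For IL6 they were CXCL5 (r = 0.997), which encodes a neutrophil-attracting chemokine, LINC00937 (0.996) and EDNRA (0.994), the endothelin A receptor gene. For OSM they were TRIM8 (0.954), LINC02970 (0.952) and PRKAR1B-AS1 (0.946), and for LIF DMPK (0.959), STXBP2 (0.953) and LTO1 (0.945). IL6R was closest to HAVCR2 (0.985), which encodes the receptor TIM-3, ZNF253 (0.984) and PLXDC2 (0.981), and IL6ST to SEPTIN10 (0.97), MR1 (0.966) and THAP12 (0.953). Among the members themselves, IL6 and IL6R ran in opposite directions (r = -0.79), as did OSM and IL6R (-0.721). For the neighbours OSM and LIF r was 0.0038 over the 12 libraries but 0.786 over the 10 libraries without the compound, a choice made after seeing the data, so the 2 libraries with it, low in OSM and high in LIF, decided that value. Without them r was -0.994 for IL6 and IL6R and -0.78 for OSM and IL6R.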

How the data were processed

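Total RNA of 12 libraries of human iMGLs was sequenced from NEBNext Ultra libraries, per the labels' protocols. The deposited table, made by the authors, holds raw counts of reads for 57992 Ensembl genes. The submitters' processing notes name CASAVA 1.7, Cufflinks and GRCh38. The aligner, counter, strand setting and annotation release were not named in the sources used here. Where strand was not used, reads of a gene and its antisense partner cannot be told apart. Groups and replicate numbers came from the titles. Symbols came from a gene name table (56948 identifiers) and GENCODE release 29 (440 more), and positions and exon lengths from the latter.

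Genes were kept by filterByExpr (16022, with 5 of the 6 members), scaled by TMM, and fitted over all 12 libraries with 1 mean per group in edgeR 4.0.16 (R 4.3.3, quasi-likelihood, robust), with 8 comparisons, 2-sided tests and Benjamini-Hochberg adjustment over all genes at 0.05. Groups of 2 libraries borrow their spread from the other groups, and with 1 library left out the remaining one is assumed to vary like those groups. The script was tested on simulated data. Alternatives were DESeq2 1.42.0, limma-voom (limma 3.58.1), RLE factors, total library size, no filter, at least 10 counts in at least 2 libraries, only the groups compared, a replicate block and leaving out each library. Replicates were not duplicates (chi-square per degree of freedom 2.02 to 11.1). Named genes were the 6 members, MEF2C, the 3 genes most like each member, members of short pathway lists and, in longer lists, called genes with low adjusted p and genes a result turns on. The members and lists were chosen with earlier results of these data known. 1 gene of the signal transduction list is not reported here and was left out of its counts and medians after the values were known.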

Additional observations from a re-analysis of the deposited data

Results flagged for a closer look

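The LPS response of LIF differed between the genotypes by 0.59 ± 0.13 on the log2 scale (edgeR's quasi-likelihood test of the interaction, adjusted p = 0.00419). LIF was at 27.4 ± 2.15 CPM in WT and 24.1 ± 2.35 CPM in WT LPS, and at 33.8 ± 2.29 CPM in KO and 44.4 ± 3.17 CPM in KO LPS. Both KO LPS libraries lay above all KO libraries. Leaving out each library in turn gave 0.49 to 0.69, called each time.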

How the results depend on the processing

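Over 535 alternative values of the 40 member changes, 494 kept their direction and their side of the threshold, 15 lost and 16 gained a call, and 10 changed sign. Total library size was the setting with most changes. Under it OSM in WT LPS vs WT was -0.03, IL6ST -0.09 and LIF -0.48, in KO LPS vs KO LIF was 0.14 and IL6ST 0.04 with 3 members called, and in KO LPS BMS vs KO LIF was 0.03, IL6R -0.22 and IL6ST -0.1, while OSM in KO vs WT was called at 0.26. OSM in KO vs WT was also called with RLE factors (0.25), no filter (0.24), limma-voom (0.25) and only the groups compared (0.27). IL6R in KO LPS BMS vs KO was called with DESeq2 (0.14), RLE factors (0.14) and only the groups compared (0.14). IL6ST in KO LPS vs WT LPS was called with RLE factors (-0.17) and no filter (-0.16). LIF in KO LPS BMS vs KO LPS was 0.01 with DESeq2, RLE factors and no filter. Total library size moved the median of all genes by -0.29 in WT LPS vs WT, -0.25 in KO LPS vs KO and -0.34 in KO LPS BMS vs KO. The cause of differences beyond that shift was not tested.

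With the replicate number as a block, OSM in WT LPS vs WT was 0.23 (adjusted p = 0.089), the one member call that changed. Same-numbered libraries did not deviate together: the correlations were 0.007 to 0.065 for KO and WT and -0.143 to 0.097 for the other pairs, so the numbers were not taken to pair the samples. Genes called under LPS, KO vs WT, were 2660 with only the groups compared, against 4900.

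Leaving out 1 library, members called were 2 to 4 in KO vs WT and 1 to 2 in the interaction. All genes called were 3005 to 5549 in KO LPS vs WT LPS and 1162 to 3079 in the interaction. Ranges were 0.24 to 0.35 for LIF and -0.19 to -0.15 for IL6R in KO vs WT. In WT LPS vs WT they were 0.06 to 0.44 for OSM, -0.29 to -0.09 for LIF and 0.13 to 0.25 for IL6ST. In KO LPS vs WT LPS IL6ST ranged from -0.22 to -0.07, and OSM in the interaction from 0.14 to 0.53. In KO LPS BMS vs WT LPS IL6ST ranged from -0.25 to -0.14, and in KO LPS BMS vs KO LPS LIF from -0.05 to 0.05 and IL6ST from -0.12 to 0.05.

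Levels on total library sizes were lower with LPS and higher without it. IL6 was 3.11 CPM in KO, 235 CPM in KO LPS and 61 CPM in KO LPS BMS. OSM was 26.3 CPM in WT, 31.4 CPM in KO, 39.3 CPM in KO LPS and 13.2 CPM in KO LPS BMS. LIF was 30.3 CPM in WT, 37.4 CPM in KO, 41.2 CPM in KO LPS and 38.2 CPM in KO LPS BMS. IL6R was 221 CPM in WT, 196 CPM in KO, 108 CPM in WT LPS, 105 CPM in KO LPS and 169 CPM in KO LPS BMS. IL6ST was 572 CPM in WT, 489 CPM in KO, 536 CPM in WT LPS, 503 CPM in KO LPS and 456 CPM in KO LPS BMS. Depth limits OSMR, at 3 to 10 counts per library.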
